A study of Homo sapiens with 41 samples.

Results

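Translation initiation factors are the proteins that bring the initiator methionyl-tRNA, the mRNA and the ribosomal subunits together at the start codon. Here they were the protein-coding genes whose symbol opens with EIF and a digit from 1 to 6, without the EIF2AK kinases, which gave 52 of the 19831 protein-coding genes in a count table of 58721 genes. Of the 52, 50 passed the filter on low counts; EIF4E1B and EIF5A2 did not, with at most 5 and 4 reads in any library. The members were picked by symbol, and no measured value was used. The table came from T98G cells, an established human glioblastoma line that stops growing without serum and re-enters the cell cycle when serum returns. All cultures, those of 0 min included, were kept without serum for 72 h. They were then given medium with 20% fetal calf serum and lysed at intervals of 10 min up to 400 min, and the 0 min culture was the unstimulated reference. Each of the 41 times was 1 culture and 1 library of ribosomal RNA-depleted total RNA, so no time had a replicate, and errors come from the scatter of libraries about a smooth curve.

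In mammalian cells the small ribosomal subunit is loaded with eIF1, eIF1A, eIF3, eIF5 and the ternary complex of eIF2, GTP and initiator tRNA. The complex eIF4F, made of the cap-binding protein eIF4E, the scaffold eIF4G and the helicase eIF4A, brings it to the mRNA cap, after which it scans to the start codon. Growth factor signalling is known to act on these proteins mainly after translation, through phosphorylation of eIF4E-binding proteins and of eIF4B. The alpha subunit of eIF2 is phosphorylated by stress kinases. The present values concern the transcripts only.

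Libraries held 18206982 (20 min) to 64948114 (70 min) counted fragments, with a median of 41773419. Counts were scaled by median-of-ratios size factors, and a value so scaled is called a normalised count below. Of the markers of the line, VIM, CD44, TNC and EGFR were abundant throughout. GFAP, S100B and SOX2, known from glial and neural cells, had at most 6.23, 4.15 and 2.25 normalised counts in any library, and NES, a neural progenitor gene, had at most 61.6. OLIG2, of the oligodendrocyte lineage, ran 35.8 to 50.2 at 350 to 400 min and 8.30 to 29.5 at 0 to 50 min and was 2.14 ± 0.38 (SE) log2 units above 0 min at 400 min (adjusted p = 5.5e-06), and its part in the results was not tested. Of 7 markers of blood, epithelial, endothelial and neuronal cells, the highest was EPCAM, with 27.5 normalised counts in 1 library. FOS, an immediate early gene of the serum response, was 6.26 ± 0.17 (SE) log2 units above 0 min at 30 min.

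Most initiation factor transcripts were more abundant by the end of the course. A spline of the counts on time (edgeR quasi-likelihood, Benjamini-Hochberg adjustment over the 21629 genes tested, threshold 0.01) gave 38 of 50 members higher at 400 min than at 0 min, against 24.2% of all genes and 31.0% of protein-coding genes tested. Another 6 were lower, against 22.4% of all genes, and 6 did not pass. The median change of the 50 members was 0.59 on the log2 scale, and that of all genes tested was -0.00418. Of the 38, 12 had at least doubled, led by EIF4A1, EIF2S1 and EIF4E. With the 0 min library left out and its level extrapolated from the later ones, 16 members passed as higher and 2 as lower, with a median standard error of 0.214 against 0.0847. The calls that ended were those of EIF1B, EIF2A, EIF2D, EIF2S3, EIF2S3B, EIF2B2, EIF2B3, EIF2B5, EIF3C, EIF3CL, EIF3D, EIF3F, EIF3G, EIF3H, EIF3I, EIF3K, EIF4A2, EIF4A3, EIF4E3, EIF4EBP1, EIF4EBP3, EIF4ENIF1, EIF4G1, EIF4G3, EIF4H and EIF5AL1. With scaling to the RNA spike-ins 21 passed as higher and 0 as lower. The share of all genes called was not counted in either of these fits. Without the 0 min library the median log2 change at 400 min was 0.566 for the members and 0.0369 for all genes tested. With spike-in scaling these medians were 0.633 and 0.026. The counts are relative to the rest of the library and come from whole cultures, so a change in some of the cells and a smaller one in all of them cannot be told apart.

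The change built up slowly. At 30 min 1 member was higher and 1 lower, against 1.71% and 0.342% of all genes, at 60 min 5 and 1, against 5.15% and 1.23%, and at 120 min 12 members were higher, against 13.6%. No member passed as lower at 120 min in the main edgeR fit or in DESeq2. In that edgeR fit 6.75% of all genes passed as lower, and 2 members were lower at an unadjusted p under 0.05. Other fits did call members lower at 120 min. EIF4B and EIF2D passed with windows of 3 libraries (-0.18 and -0.23) and with offsets smoothed over GC content (-0.21 and -0.20). By 240 min 32 members were higher and 4 lower, against 21.6% and 18.5% of all genes. All 12 members that were higher at 120 min and all 32 that were higher at 240 min were also higher at 400 min. Up to 60 min the counts rest on 1 to 5 members and on a few libraries. None passed at 30 or 60 min without the 0 min library, and 11 were higher and 5 lower at 30 min without the 4 libraries farthest from the curves (20, 90, 250 and 300 min). At 120 and 240 min, 2 and 7 were higher without the 0 min library, and the share of all genes in that fit was not counted. With the 0 min library, the share of members higher from 240 min on stood well above that of all genes. Over the whole course 47 of 50 members changed (F-test of the 7 spline terms), against 75.5% of all genes, and EIF2B4, EIF4E2 and EIF3F did not pass. Autocorrelation between neighbouring libraries was found by the Ljung-Box test in 43 of 50 members, against 60.9% of all genes.

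**Figure D1:**
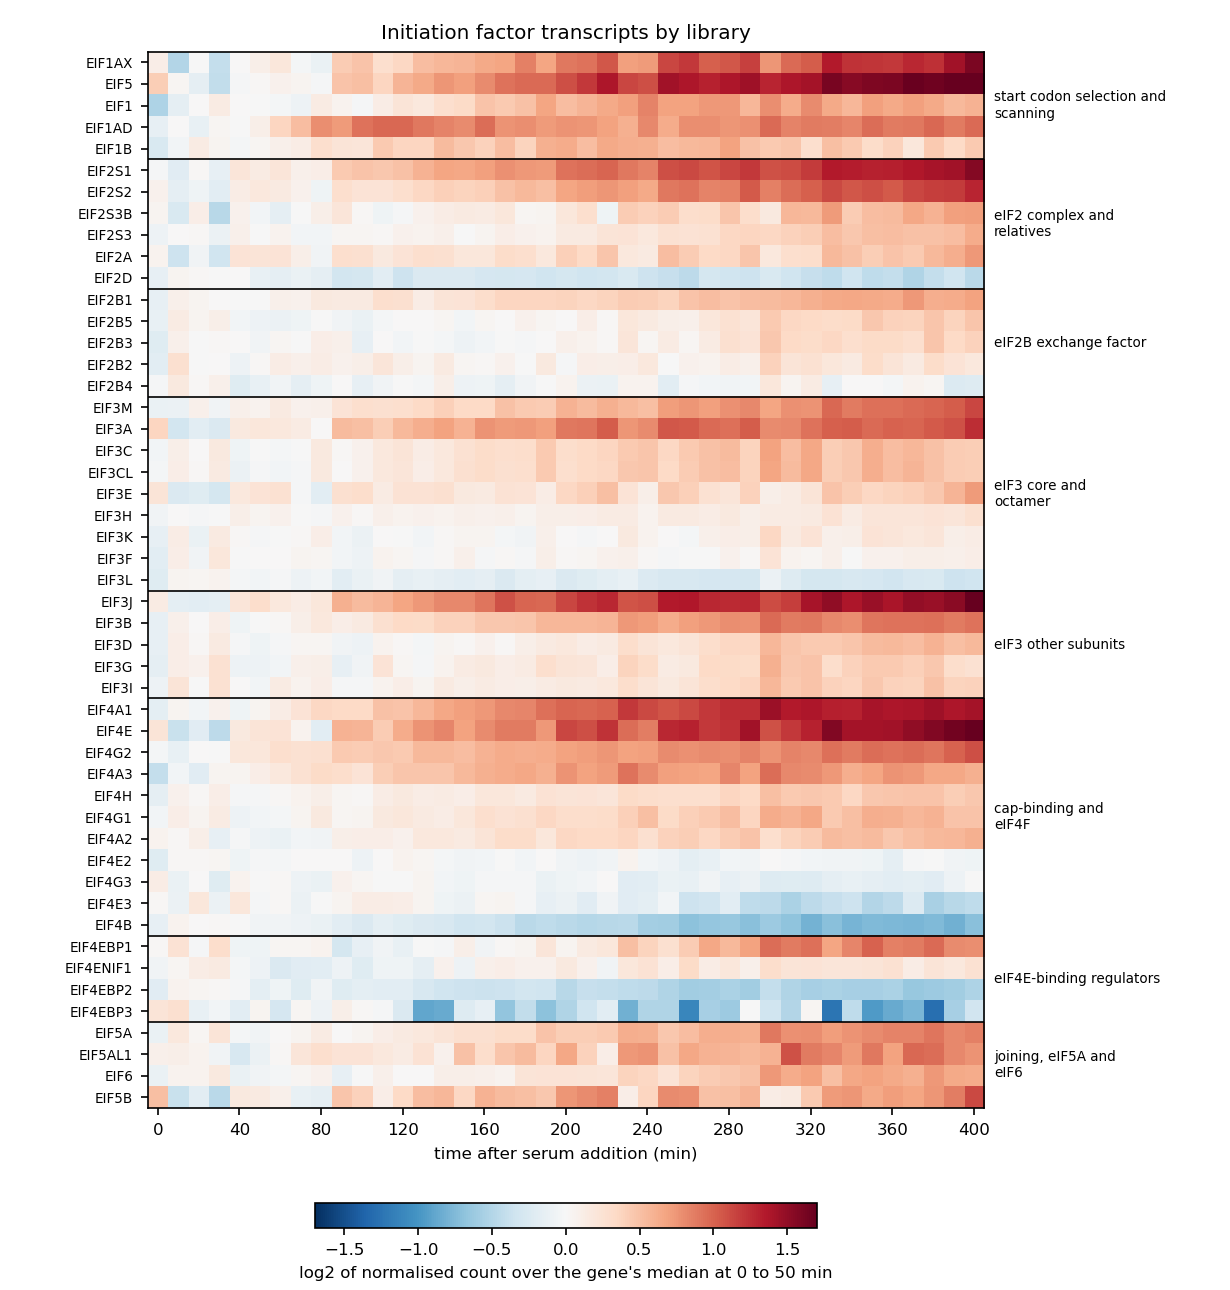
Each row is 1 of 49 tested initiation factor genes (EIF1AY, which is Y-linked, is left out) and each column 1 of the 41 libraries, in minutes after serum addition. Colour is the log2 of the normalised count over the gene's own median at 0 to 50 min, within role groups ordered by the fitted change at 400 min. EIF5, EIF4E, EIF3J, EIF4A1 and EIF2S1 darken over the course, EIF4B and EIF4EBP2 turn blue, and EIF4E2, EIF2B4 and EIF3F stay pale.

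The same was read directly from the counts by setting the last 6 libraries (350 to 400 min, called late) beside the first 6 (0 to 50 min, called early). In 36 of 50 members every late library was above every early one, against 24.5% of all genes tested. In 6 every late library was below every early one, against 22.9%. The other 8, EIF1AY, EIF2B2, EIF2B4, EIF3F, EIF3K, EIF4E2, EIF4ENIF1 and EIF4G3, overlapped. The 50 members together took 0.818% of a library's counts in the late libraries and 0.53% in the early ones (medians).

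A feature known to mark mRNAs of the translation machinery is the 5′ terminal oligopyrimidine motif, a C at the first transcribed base followed by a run of C and T, through which mTORC1 controls their translation. RefSeq start sites (GRCh38.p14) were at hand for 44 of the 52 members. Of these, 10 (22.7%) began with C and at least 4 further pyrimidines at an annotated start, against 5.14% of the 27305 genes in the same table. The first 20 transcribed bases of the 10 are shown 5′ to 3′ because the motif lies there, with the opening pyrimidine run in capitals.
EIF4B (chr12:53006456-53006475, plus strand): CTTTTgcgttctctttccct
EIF3K (chr19:38619188-38619207, plus strand): CTCTTCCTgttcccgtcctt
EIF3F (chr11:7987337-7987356, plus strand): CTTCTTTCTCgacaagatgg
EIF3D (chr22:36529147-36529166, minus strand): CTCTTTTCCTggtttctcaa
EIF3M (chr11:32583831-32583850, plus strand): CTTTTCCggtcggcgtggtc
EIF4A2 (chr3:186783577-186783596, plus strand): CTTTTCagtcgggcgctgag
EIF2A (chr3:150546787-150546806, plus strand): CTCTTTCCgggacaacatgg
EIF2D (chr1:206612446-206612465, minus strand): CCTTTTCgcggccgggcccc
EIF2S3 (chrX:24054956-24054975, plus strand): CTCTTTTggcaacatggcgg
EIF2S3B (chr12:10505890-10505909, plus strand): CTCTTTTggcaacatggcgg
For contrast, the same stretch is given for 3 members that rose strongly and have no such run.
EIF4A1 (chr17:7572825-7572844, plus strand): CCTagtttctaaggatcatg
EIF4E (chr4:98929114-98929133, minus strand): gtgcgatcagatcgatctaa
EIF5 (chr14:103334237-103334256, plus strand): agtcagagcgagaacattcc
EIF2S3 and EIF2S3B share these 20 bases.

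The 10 members with the run included 2 of the 6 that fell at 400 min, EIF4B and EIF2D, and 8 that rose. Their log2 changes at 400 min ran from -0.66 (EIF4B) to 1.19 (EIF3M), with a median of 0.56. The 32 tested members with a start site and no run had a median of 0.61, with 24 higher and 4 lower. With offsets smoothed over GC content the medians were 0.36 with the run and 0.59 without it. The difference was not tested. EIF3M was the only one of the 10 that at least doubled.

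The other motif searched was CACGTG, the E-box bound by MYC and related factors, whose letters read the same on both strands. MYC itself was 2.91 ± 0.15 (SE) log2 units above 0 min at 60 min and 2.88 ± 0.15 above it at 400 min. In windows reaching 250 bases before and 50 bases after the start, 11 of 44 members (25.0%) held CACGTG, against 8.77% of the 27305 genes. Both EIF4E and EIF4G1, which encode partners within eIF4F, held it at a pair of positions, and these upstream stretches are printed 5′ to 3′ on the gene's strand with the motif in capitals.
EIF4E (chr4:98929194-98929363, minus strand): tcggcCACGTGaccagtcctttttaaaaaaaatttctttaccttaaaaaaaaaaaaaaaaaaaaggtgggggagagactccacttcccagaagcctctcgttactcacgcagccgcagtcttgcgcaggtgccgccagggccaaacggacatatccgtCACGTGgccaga
EIF4G1 (chr3:184314456-184314555, plus strand): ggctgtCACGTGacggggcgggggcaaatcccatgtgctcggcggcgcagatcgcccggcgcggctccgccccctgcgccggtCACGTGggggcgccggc
Of the 10 tested members with CACGTG, 8 were higher and 2 lower at 400 min (median log2 change 0.57), and of the 32 tested without it 24 were higher and 4 lower (median 0.66). Members with the motif thus stood among both those that rose and those that fell. A match says nothing of whether a factor bound there.

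The factors that select the start codon include both members that passed at 30 min in the fit to all libraries, EIF1 and EIF5. eIF1 keeps the scanning ribosome open, eIF1A works with it, and eIF5 stimulates GTP hydrolysis by eIF2 once the start codon is met. EIF1 (chromosome 17, 41688885 to 41692668, plus strand) had 3134, 4086, 4564 and 4974 normalised counts at 0, 10, 20 and 30 min. It was the only member that passed as higher at 30 min in that fit (log2 change 0.61 ± 0.086 (SE), adjusted p = 1.1e-06). After a plateau until about 100 min it climbed again, to its highest library at 240 min with 8124 normalised counts. At 400 min it was 1.11 ± 0.08 (SE) log2 units above 0 min. EIF1 ran 6653 to 7350 (median 7066) in the late libraries and 3134 to 4974 (median 4523) in the early ones, with no overlap.

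EIF5 (chromosome 14, 103333544 to 103345025, plus strand) went the other way first and had the lowest value of its course at 30 min. Its normalised counts were 4209, 3208, 2831 and 2338 at 0, 10, 20 and 30 min. The fall passed the test at 30 min (log2 change -0.68 ± 0.12 (SE), adjusted p = 9.6e-05) and at 60 min (log2 change -0.40 ± 0.10 (SE), adjusted p = 0.0066). Without the 0 min library neither passed (-0.86, adjusted p = 0.5, and -0.56, adjusted p = 0.58). Windows of 3 libraries gave -0.08 at 60 min (adjusted p = 0.76). EIF5 was well above its starting level by the end, with 11554 at 400 min (log2 change 1.34 ± 0.12 (SE), adjusted p = 2.5e-13). EIF5 ran 9405 to 11554 (median 9992) in the late libraries and 2338 to 4209 (median 3136) in the early ones, the largest ratio of medians among the members, 3.19. EIF5 and EIF1 thus stood on opposite sides of their 0 min level, which is 1 library, at 30 min and on the same side at 400 min.

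EIF1AD, a gene related to EIF1AX by its eIF1A-like domain, rose at a time when most members had not. Its normalised counts stayed between 692 and 814 in the first 6 libraries and reached 1502 at 120 min (log2 change 1.07 ± 0.08 (SE), adjusted p = 2.3e-15). It kept between 1400 and 1500 in the late libraries, and its rise passed the halfway point to its peak at 68.4 min. That midpoint was the earliest among the 12 members that at least doubled, whose median was 196 min and whose latest was 241 min, for EIF4E. EIF1AX, which encodes eIF1A, ran 4082 to 5393 (median 4262) in the late libraries and 1257 to 1921 (median 1778) in the early ones and ended 1.40 ± 0.19 (SE) log2 units above 0 min (adjusted p = 6.9e-08). EIF1B, a near copy of EIF1 in sequence, ran 423 to 507 (median 478) in the late libraries and 310 to 410 (median 371) in the early ones and was highest at 280 min. EIF1AY did not pass the test at any of the 5 times, and its curve at 400 min lay 0.31 ± 0.19 (SE) log2 units above 0 min (adjusted p = 0.18); windows of 3 libraries gave 0.69 at 400 min, which passed (adjusted p = 0.0021). In this group 5 of 6 members were higher at 400 min, with a median of 1.10 on the log2 scale.

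**Figure D2:**
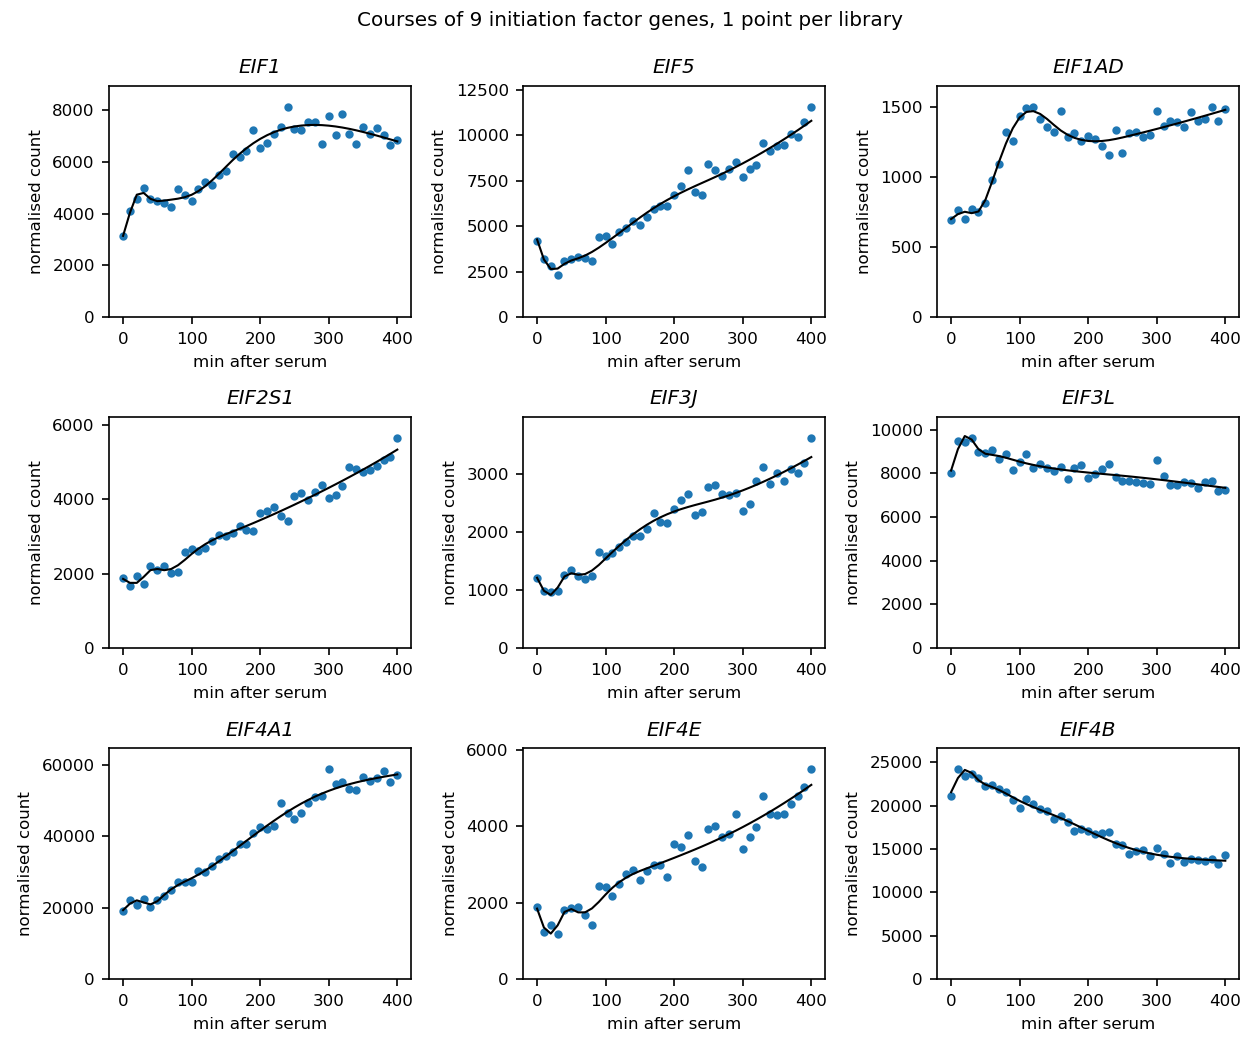
Normalised counts of 9 initiation factor genes against minutes after serum addition, with 1 point for each of the 41 libraries and the fitted spline as a line. EIF1 is up and EIF5 down at 30 min, EIF1AD turns up before 100 min, EIF2S1, EIF3J, EIF4A1 and EIF4E climb to the end, and EIF4B declines to 14286 while EIF3L is up at 10 to 30 min and ends at 7246, against 7996 at 0 min.

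All 3 subunits of eIF2 rose, EIF2S1 with the largest estimate. EIF2S1 encodes the alpha subunit, the target of the stress kinases, EIF2S2 the beta subunit and EIF2S3 the gamma subunit, which holds GTP and the tRNA. EIF2S1 (chromosome 14, 67360328 to 67386516, plus strand) ran 4746 to 5648 (median 4976) in the late libraries and 1668 to 2200 (median 1908) in the early ones, and its log2 change at 400 min was 1.52 ± 0.09 (SE, adjusted p = 5.1e-19). EIF2S2 ran 10238 to 12170 (median 11088) in the late libraries and 4386 to 5652 (median 4973) in the early ones, with a log2 change of 1.16 ± 0.08 (SE). EIF2S3 ran 10050 to 10958 (median 10125) in the late libraries and 6628 to 7573 (median 7101) in the early ones, a rise of 0.64 ± 0.06 (SE). None of the 3 overlapped between late and early libraries. The difference between the subunits was not tested. EIF2S3B, an autosomal copy of EIF2S3 that shares reads with it, rose by 0.68 ± 0.15 (SE).

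Among the relatives of eIF2, EIF2A rose and EIF2D fell. EIF2D, which can deliver tRNA to the ribosome without GTP and acts in recycling, ran 1117 to 1262 (median 1198) in the late libraries and 1451 to 1645 (median 1598) in the early ones. Its log2 change was -0.31 ± 0.07 (SE, adjusted p = 1.1e-04), and -0.47 without the 0 min library (adjusted p = 0.047). EIF2A, a single protein unrelated to the eIF2 trimer, was higher by 0.59 ± 0.13 (SE, adjusted p = 1.7e-04). Here 5 of 6 members were higher and 1 lower at 400 min.

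The exchange factor eIF2B reloads eIF2 with GTP, and each of its 5 subunits changed by less than 1 log2 unit. EIF2B1, the alpha subunit, which with EIF2B2 and EIF2B4 senses phosphorylated eIF2, ran 1536 to 1667 (median 1560) in the late libraries and 911 to 1059 (median 1001) in the early ones and rose by 0.81 ± 0.06 (SE) on the log2 scale. EIF2B5, the catalytic subunit, and EIF2B3 rose by 0.57 ± 0.07 and 0.56 ± 0.08 (SE). EIF2B2 was 0.34 ± 0.10 (SE) higher with overlapping libraries, and stood at -0.33 without passing when the 0 min library was left out. Without that library EIF2B5 (0.33, adjusted p = 0.21) and EIF2B3 (0.28, adjusted p = 0.39) did not pass either. EIF2B4 did not pass at any time and ran 510 to 628 (median 597) in the late libraries and 521 to 672 (median 601) in the early ones. Over the group 4 of 5 were higher at 400 min, with a median log2 change of 0.56.

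The scaffold eIF3, the largest initiation factor, holds the small subunit and contacts eIF4G, and its subunits spread widely. The 14 genes tested ran from -0.15 (EIF3L) to 1.44 (EIF3J) on the log2 scale at 400 min. Of the 9 genes of the octamer with its core, 7 were higher, with a median of 0.35, and all 5 of the other subunit genes were higher, with a median of 0.70. EIF3J, whose product is loosely bound and sits near the decoding centre, ran 2875 to 3623 (median 3054) in the late libraries and 968 to 1346 (median 1095) in the early ones. EIF3B, which carries a WD40 propeller, ran 12283 to 12707 (median 12591) in the late libraries and 6046 to 7210 (median 6657) in the early ones and rose by 1.05 ± 0.07 (SE, adjusted p = 2.4e-18). EIF3D, a cap-binding subunit, rose by 0.70 ± 0.07, EIF3G by 0.52 ± 0.11 and EIF3I by 0.47 ± 0.09 (SE each). Without the 0 min library EIF3I stood at 0.19 (adjusted p = 0.6).

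Within the octamer EIF3M and EIF3A stood apart from the rest in size. EIF3M (chromosome 11, 32583798 to 32606264, plus strand) ran 7339 to 8403 (median 7538) in the late libraries and 3554 to 4096 (median 3842) in the early ones, with a log2 change of 1.19 ± 0.07 (SE, adjusted p = 1.1e-18). EIF3A, the largest subunit, ran 13373 to 16481 (median 13955) in the late libraries and 5560 to 8910 (median 6886) in the early ones and rose by 0.78 ± 0.12 (SE). EIF3C and EIF3CL rose by 0.52 ± 0.08 and 0.50 ± 0.09 (SE). These are near-identical neighbours on chromosome 16, the deposited counting gave a fragment that fits several places to each, and EIF3CL had 93.1% to 95.2% of the count of EIF3C in every library, so the values of the pair are not independent. EIF3H (0.28 ± 0.05), EIF3K (0.27 ± 0.09) and EIF3F (0.24 ± 0.07, SE each) passed with small rises, and none of the 3 passed without the 0 min library (EIF3H at 0.11, EIF3K at -0.0359 and EIF3F at -0.0266). EIF3E did not pass (0.35 ± 0.14 SE, adjusted p = 0.036), though it did with windows of 3 libraries (0.65, adjusted p = 5.0e-05). With offsets smoothed over GC content EIF3E stood at 0.14 and did not pass (adjusted p = 0.022). EIF3L, the partner of EIF3K in the structure, missed the threshold with a change of -0.15 ± 0.06 (SE, adjusted p = 0.033), and passed with windows of 3 libraries (-0.28, adjusted p = 2.6e-05). In the counts, EIF3L ran 7187 to 7664 (median 7447) in the late libraries and 7996 to 9615 (median 9202) in the early ones without overlap, and the 0 min library was the lowest of the early ones (7996).

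**Figure D3:**
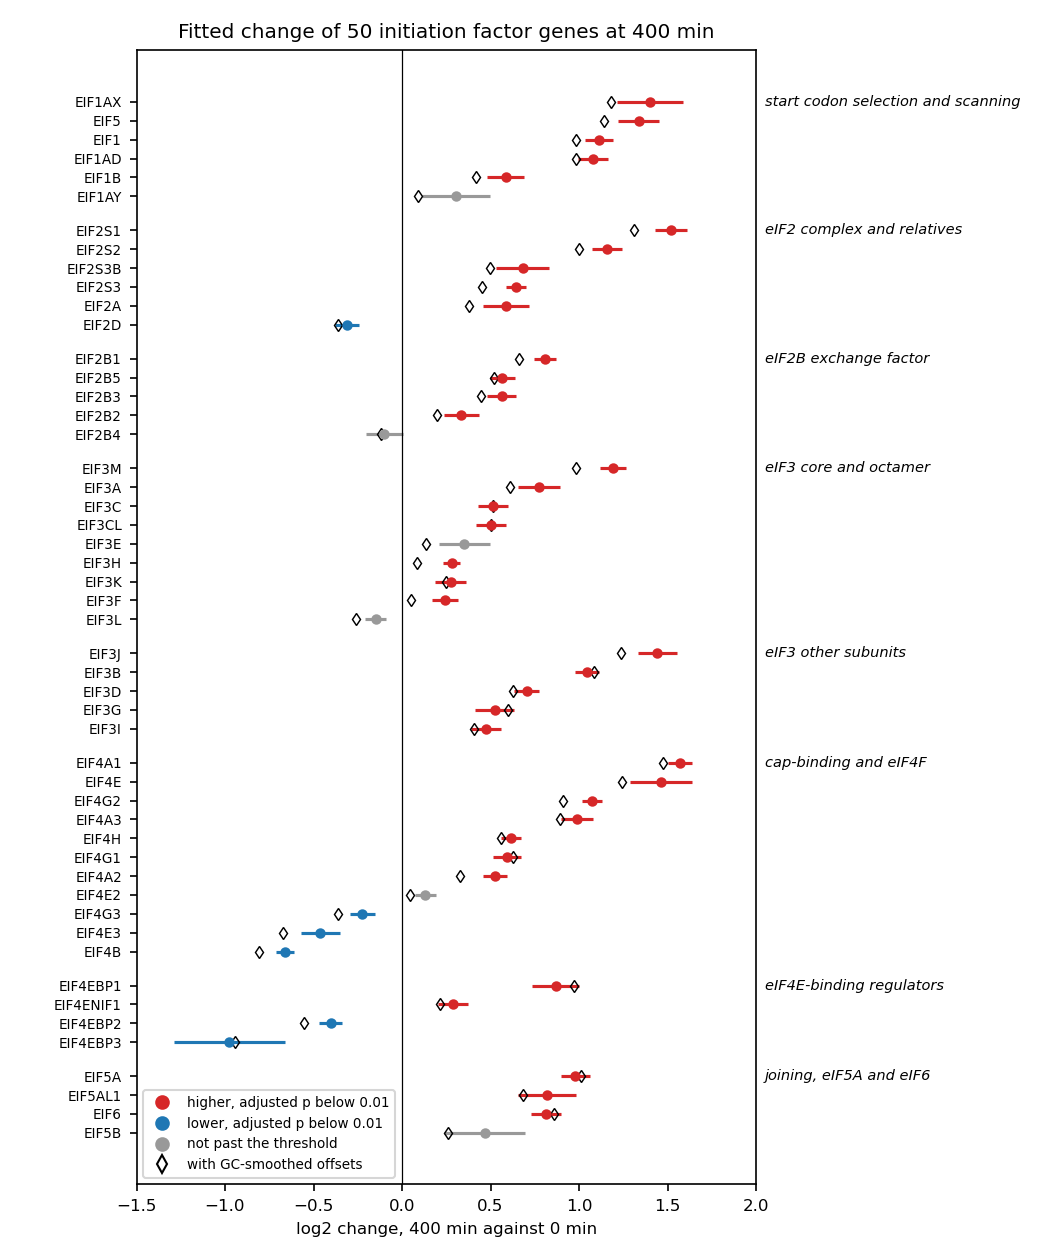
Fitted log2 change at 400 min against 0 min for the 50 tested initiation factor genes in their role groups, with bars of 1 SE and filled points coloured by the test. Open diamonds give the same value after each library was corrected for its trend with GC content. Changes span -0.98 (EIF4EBP3) to 1.57 (EIF4A1).

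The eIF4F subunits and their cofactors held the largest rise and the largest fall among the members averaging at least 100 counts. EIF4A1 (chromosome 17, 7572824 to 7579006, plus strand), the main eIF4A helicase of growing cells, ran 55332 to 58226 (median 56433) in the late libraries and 19042 to 22529 (median 21393) in the early ones. It was higher from 60 min on, at 0.29 ± 0.06, 0.66 ± 0.06, 1.28 ± 0.06 and 1.57 ± 0.07 (SE) log2 units at 60, 120, 240 and 400 min (adjusted p = 3.8e-24 at 400 min). EIF4A2, its close relative, ran 22406 to 24918 (median 23936) in the late libraries and 14865 to 17607 (median 16374) in the early ones, a rise of 0.53 ± 0.07 (SE). Exons of EIF4A1 on the same strand overlap SENP3-EIF4A1 and small nucleolar RNAs such as SNORA67 and SNORD10, and those of EIF4A2 overlap SNORA63 and SNORD2, and their fragments were counted for each overlapping gene. EIF4A3, the helicase of the exon junction complex rather than of initiation, ran 2374 to 2645 (median 2483) in the late libraries and 1181 to 1696 (median 1564) in the early ones. Its log2 change was 1.12 ± 0.09 at 240 min and 0.99 ± 0.09 at 400 min (SE), and its highest library was at 300 min (3032). Without the 0 min library the change at 400 min was 0.59 (adjusted p = 0.048).

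EIF4E (chromosome 4, 98879276 to 98929133, minus strand), the cap-binding protein, ran 4311 to 5504 (median 4694) in the late libraries and 1190 to 1878 (median 1614) in the early ones. Its log2 change at 400 min was 1.46 ± 0.18 (SE, adjusted p = 6.3e-09), and no late library overlapped an early one. In the first 4 libraries it had 1878, 1245, 1413 and 1190 normalised counts, so the start of its course was uneven. Annotated pseudogenes of EIF4E held counts equal to 29.1% of those of the gene over the 41 libraries. Exons of EIF4E also overlap TBCAP3 on the same strand. How many fragments were shared was not measured. Neither of the other tested cap-binding paralogs passed as higher at 400 min. EIF4E2, which can repress translation, ran 2692 to 2991 (median 2855) in the late libraries and 2593 to 3063 (median 2995) in the early ones and did not pass at any time. EIF4E3 ran 333 to 414 (median 355) in the late libraries and 454 to 559 (median 487) in the early ones and fell by 0.46 on the log2 scale (SE 0.11, adjusted p = 3.5e-04), and by 0.23 without the 0 min library (adjusted p = 0.65).

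Of the scaffolds, EIF4G2, the eIF4G relative without an eIF4E site, changed most. EIF4G2 ran 28927 to 32984 (median 29899) in the late libraries and 14164 to 17692 (median 15443) in the early ones and was higher from 60 min (0.30 ± 0.05 SE) to 400 min (1.07 ± 0.06 SE). EIF4G1, the main scaffold, ran 12756 to 14023 (median 13575) in the late libraries and 8568 to 10069 (median 9112) in the early ones, a rise of 0.59 ± 0.08 (SE). EIF4G3 overlapped (1639 to 1862 late and 1619 to 2052 early), although the curve gave a change of -0.22 ± 0.07 (SE, adjusted p = 0.0083) and, without the 0 min library, of -0.09 (adjusted p = 0.82).

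The helicase cofactors moved in opposite directions. EIF4B (chromosome 12, 53006282 to 53042215, plus strand), which stimulates eIF4A and is a target of growth factor kinases, ran 13299 to 14286 (median 13825) in the late libraries and 21170 to 24248 (median 23332) in the early ones. It lost ground in nearly every stretch after 10 min, with 24248, 20264, 15574 and 14286 normalised counts at 10, 120, 240 and 400 min. The log2 change was -0.46 ± 0.05 at 240 min and -0.66 ± 0.05 at 400 min (SE, adjusted p = 2.6e-15 at 400 min). EIF4H, which resembles EIF4B in activity, ran 13037 to 13690 (median 13457) in the late libraries and 8749 to 10556 (median 9756) in the early ones and rose by 0.62 ± 0.06 (SE). Of the 11 tested members of the cap-binding group, 7 were higher and 3 lower at 400 min.

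The eIF4E-binding regulators split in the same way. EIF4EBP1, on chromosome 8, encodes the protein that keeps eIF4E from eIF4G until mTORC1 phosphorylates it, and EIF4EBP2 another protein of that kind. EIF4EBP1 ran 951 to 1098 (median 1003) in the late libraries and 520 to 677 (median 548) in the early ones. It stayed near its starting level until about 200 min, was lowest at 90 min (446) and passed the test at 240 min (0.39 ± 0.12 SE) and at 400 min (0.87 ± 0.13 SE, adjusted p = 3.8e-07). EIF4EBP2 ran 1485 to 1615 (median 1555) in the late libraries and 2018 to 2412 (median 2316) in the early ones, with a log2 change of -0.40 ± 0.07 (SE). EIF4EBP3 was low, with 16.2 to 31.4 normalised counts late and 34.5 to 47.3 early, and its exons overlap the read-through gene ANKHD1-EIF4EBP3 on the same strand. EIF4ENIF1, which carries eIF4E into the nucleus, rose by 0.29 ± 0.09 (SE) with overlapping libraries, and did not pass without the 0 min library (0.45, adjusted p = 0.17).

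Of the factors of the last steps, EIF5A, EIF5AL1 and EIF6 rose, and the call of EIF5B depended on the fit. EIF5A, which helps the ribosome through difficult peptide bonds and carries the amino acid hypusine, ran 9247 to 10006 (median 9526) in the late libraries and 4892 to 6183 (median 5310) in the early ones and rose by 0.98 ± 0.08 (SE). EIF5AL1, an intronless copy that shares reads with EIF5A, rose by 0.82 ± 0.16 (SE), and EIF5A2 was hardly detected. EIF6, which keeps the large subunit from joining too early, ran 5745 to 6272 (median 5896) in the late libraries and 3477 to 4231 (median 3762) in the early ones, a rise of 0.81 ± 0.09 (SE). EIF5B, the GTPase of subunit joining, did not pass at 400 min (0.47 ± 0.23 SE, adjusted p = 0.08), although it ran 1359 to 1902 (median 1447) in the late libraries and 636 to 1243 (median 872) in the early ones without overlap. Windows of 3 libraries gave 0.88 at 400 min, which passed (adjusted p = 0.00034). With offsets smoothed over GC content EIF5B stood at 0.26 and did not pass (adjusted p = 0.057). Its 0 min library (1243) was the highest of its early libraries, and the next 3 lay at 668, 773 and 636.

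Paralogs, which are related in sequence but need not share a function, were compared as the log2 ratio of their normalised counts. Late libraries were set against early ones by a two-sided exact permutation test of 6 against 6 libraries. The threshold was an adjusted p of 0.05, and the smallest p this design allows is 0.00216. Of 8 pairs listed 7 were tested, since EIF5A2 was too low. In all 7 the ratio differed with this smallest p (adjusted over the 7 pairs, 0.00216), and late and early ratios did not overlap. No other gene pairs were tested, so the share among unrelated pairs is not known. Among single genes tested, 24.5% were higher and 22.9% lower late without overlap. EIF4E and EIF4G1 recur among the pairs, so the 7 are not independent. Because neighbouring times belong to one course, the test speaks of these libraries, and the spread between cultures of 1 time was not measured. The EIF4A1/EIF4A2 ratio averaged 1.25 ± 0.045 in the late libraries and 0.38 ± 0.17 in the early ones (SD, n = 6 each), a difference of 0.87. The EIF4E/EIF4E2 ratio averaged 0.73 ± 0.13 in the late libraries and -0.92 ± 0.38 in the early ones (SD, n = 6 each), a difference of 1.65, so EIF4E was the higher of the pair in counts late and the lower early. The EIF4E/EIF4E3 ratio had the largest shift, 2.09.

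For EIF4EBP1/EIF4EBP2 the log2 ratio averaged -0.62 ± 0.11 in the late libraries and -1.97 ± 0.14 in the early ones (SD, n = 6 each), a difference of 1.35. EIF4EBP1 thus gained on EIF4EBP2 without passing it in counts. The EIF4G1/EIF4G3 ratio gained 0.65 and EIF1/EIF1B gained 0.35, the smallest gain. EIF4G1/EIF4G2 was the only ratio that dropped, with a difference of -0.40. With offsets smoothed over GC content that last difference shrank to -0.18 and the others kept their sign, at 0.44 to 1.99. With late libraries of 290 to 340 min it was -0.30 and the libraries overlapped (exact permutation test, adjusted p = 0.0195).

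**Figure D4:**
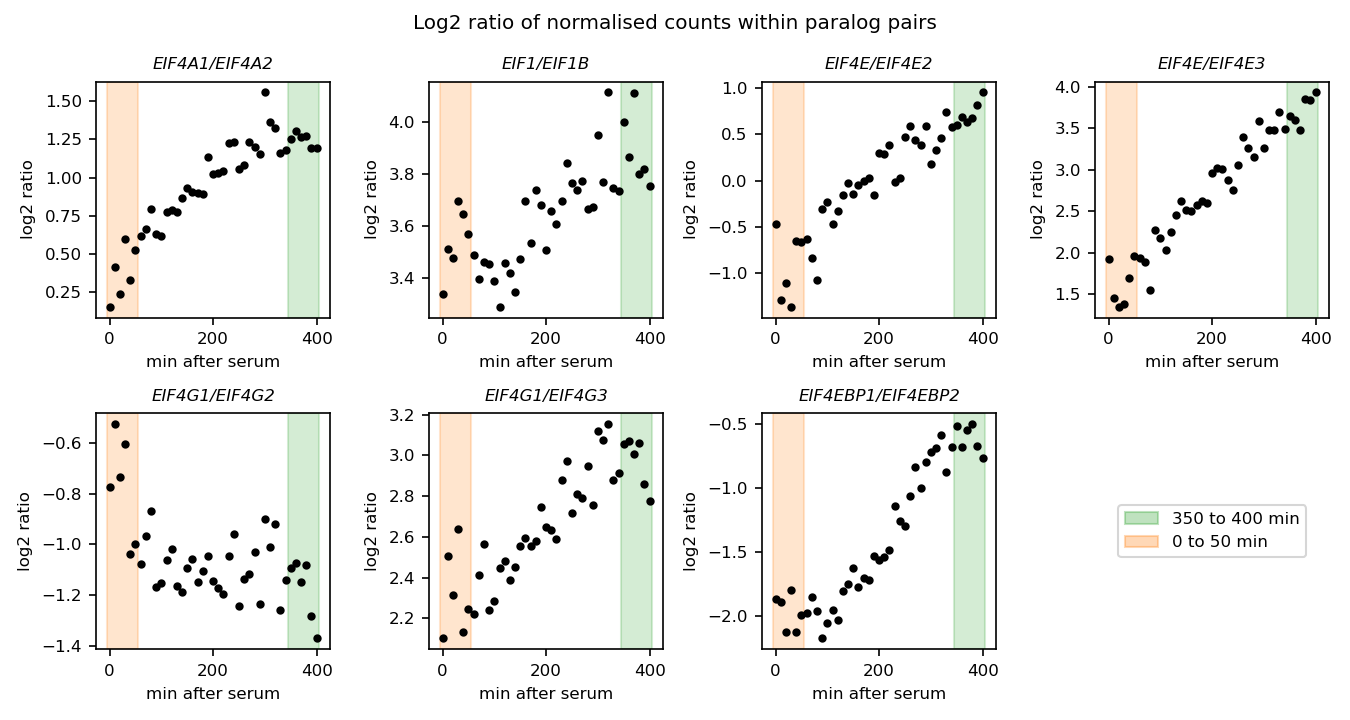
Log2 ratio of normalised counts within 7 pairs of related initiation factor genes against minutes after serum addition, 1 point per library. Shading marks the 350 to 400 min and the 0 to 50 min libraries that were compared; EIF4E/EIF4E3 shifts by 2.09, EIF4EBP1/EIF4EBP2 by 1.35 and EIF4A1/EIF4A2 by 0.87, and EIF4G1/EIF4G2 by -0.40.

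Transcripts with few G and C bases moved with the library as well as with time. In each library the log2 departure of every gene from its own mean over the 41 libraries was smoothed over the GC content of the main transcript. Such an offset also holds any change over time that transcripts of like GC content share. The offset of 40% minus 60% GC transcripts was -0.02, -0.49, -0.27 and -0.59 log2 units at 0, 10, 20 and 30 min. At 400 min it was 0.43. EIF4E (34.5% GC), EIF1AX (35.1%), EIF5B (38.4%) and EIF3A (43.2%) had their lowest libraries at 10 or 30 min, and all 4 were highest at 400 min. Not every member of like GC content did so. EIF4E3 (37.3%) was lowest at 380 min and highest at 40 min. EIF3M (38.0%), EIF3F (40.0%) and EIF3H (40.2%) were lowest at 0 min. In all, 17 of 50 members were highest at 400 min and 13 at 300 min, where the offset was -0.32. The shares of all genes highest in these libraries were not counted. With these offsets taken off, the log2 change at 400 min became 1.24 for EIF4E, 1.18 for EIF1AX, 1.31 for EIF2S1, 1.24 for EIF3J, 1.14 for EIF5, 1.48 for EIF4A1 and -0.81 for EIF4B. The rises of EIF3F (0.05), EIF3H (0.08), EIF2B2 (0.20) and EIF4ENIF1 (0.21) no longer passed, and EIF3L passed as lower (-0.26). At 30 min EIF1 (0.54) and EIF5 (-0.55) both kept their calls, and EIF4E, at -0.39 before, stood at 0.10. EIF3A stayed at -0.47 and then passed as lower (adjusted p = 0.00029, against 0.021 before). Without the 0 min library, and without these offsets, EIF3A stood at 0.04 at 30 min and did not pass.

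**Figure D5:**
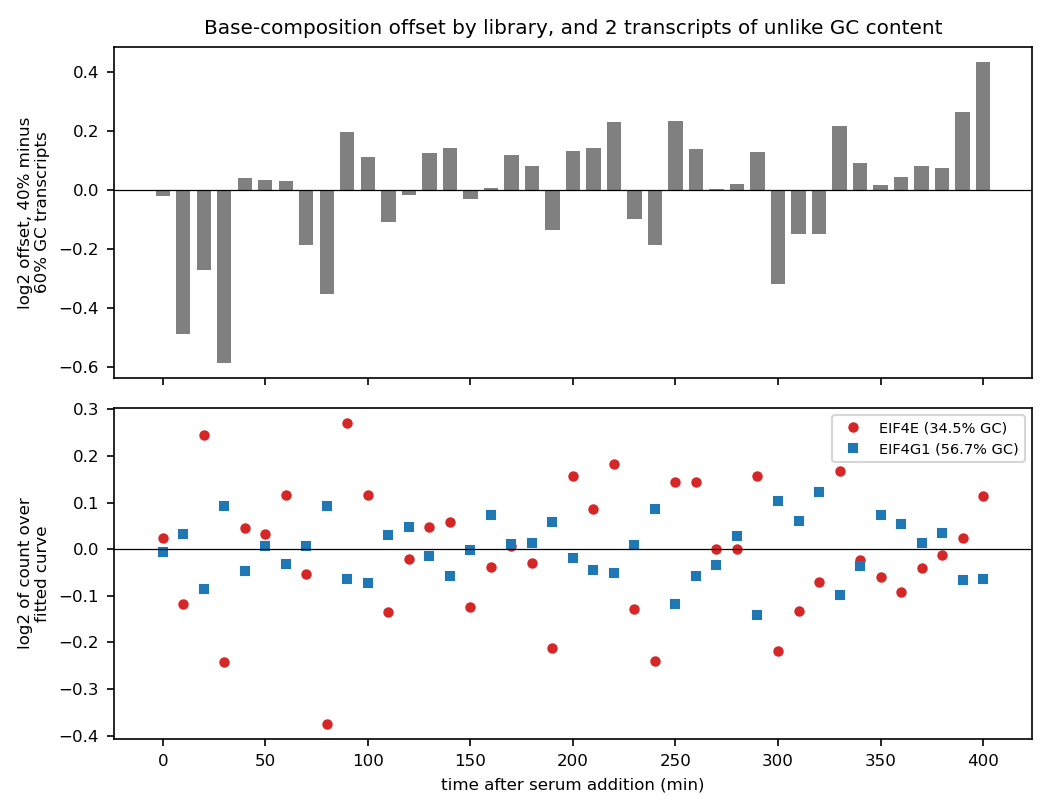
Upper panel, for each library, the log2 offset of transcripts with 40% GC minus that of transcripts with 60% GC. It comes from a smooth fit to the departure of genes from their own means over the 41 libraries. Lower panel, the log2 of the normalised count over the fitted curve for EIF4E (34.5% GC) and EIF4G1 (56.7% GC); in the libraries of 30, 80 and 300 min, where the offset is negative, EIF4E lies below its curve and EIF4G1 above it.

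Among 10 genes around the eIF2 alpha kinases, 4 were higher and 2 lower at 400 min, against 24.2% and 22.4% of all genes, the shares that also stand beside the counts of the lists that follow. PPP1R15A, the inducible subunit of the phosphatase that undoes eIF2 alpha phosphorylation, was already higher at 30 min (1.08 ± 0.12 SE) and ran 4010 to 4956 (median 4475) in the late libraries and 1748 to 4034 (median 3182) in the early ones, which overlap. PPP1R15B, the constitutive subunit, ran 4716 to 5298 (median 5139) in the late libraries and 2670 to 4467 (median 3416) in the early ones, and ATF4, the transcription factor translated when eIF2 alpha is phosphorylated, ran 14521 to 16360 (median 15485) in the late libraries and 7775 to 9737 (median 8899) in the early ones, both without overlap. The kinase genes EIF2AK1 and EIF2AK4 fell by 0.36 and 0.16 on the log2 scale, and EIF2AK2 and EIF2AK3 did not pass at 400 min.

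Of 16 genes of mTORC1 and MNK signalling to eIF4, 3 were higher, a share below that of all genes, and 7 lower at 400 min. PDCD4, an inhibitor of eIF4A, ran 336 to 431 (median 398) in the late libraries and 1555 to 2152 (median 1905) in the early ones and fell by 2.58 on the log2 scale (SE 0.12), while its target EIF4A1 rose. DEPTOR, an inhibitor of mTOR, ran 111 to 136 (median 127) in the late libraries and 717 to 855 (median 807) in the early ones. SESN2, a leucine sensor upstream of mTORC1, was 2.90 ± 0.14 (SE) higher at 240 min and ran 501 to 885 (median 707) in the late libraries and 144 to 207 (median 171) in the early ones. RHEB, the GTPase that activates mTORC1, rose by 1.27 ± 0.07, and TSC1 and TSC2, which hold RHEB back, fell by 0.32 and 0.43. LARP1 was also higher at 400 min (0.42), and MKNK1 (-0.28), MKNK2 (-0.50) and DDIT4 (-0.89) were also lower. DDIT4 had been lower at 60 and 120 min (-1.40 and -1.47) and higher at 240 min (1.71). Its late libraries (443 to 1155, median 742) overlapped the early ones (365 to 926, median 701). MTOR, RPTOR, MLST8, SESN1, RPS6KB1 and RPS6KB2 did not pass at 400 min.

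Among 16 helpers of mRNA recruitment 10 were higher and 2 lower at 400 min. ABCE1, the recycling ATPase, led with 6983 to 9516 (median 7232) in the late libraries and 1732 to 2758 (median 2398) in the early ones. CTIF, a partner of the nuclear cap-binding complex, rose at 240 min (1.22 ± 0.12 SE), and DENR, which acts with MCTS1 in reinitiation, rose by 0.95 ± 0.08 (SE) at 400 min. Of 12 elongation and termination factors 6 were higher and 2 lower. ETF1, the release factor, rose by 1.50 ± 0.07, GSPT1, its partner, by 0.94 ± 0.05 and EEF1E1, a component of the aminoacyl-tRNA synthetase complex, by 1.53 ± 0.17 (SE each).

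Of the 5 enzymes of polyamine synthesis and of hypusine, the modification of eIF5A, 4 were higher at 400 min. ODC1, the rate-limiting enzyme of polyamine synthesis, was higher from 30 min (0.50 ± 0.08 SE) and ran 5827 to 6349 (median 6072) in the late libraries and 1407 to 2181 (median 1921) in the early ones. SMS rose by 1.71 ± 0.06 and DOHH, which completes hypusine, by 1.20 ± 0.22 (SE each). DHPS, the first enzyme of the modification, did not pass at any time and ran 477 to 576 (median 526) in the late libraries and 530 to 630 (median 549) in the early ones.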

How the data were processed

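Per the labels, ribosomal RNA-depleted total RNA of 41 T98G cultures was made into stranded libraries, 1 for each time. The authors trimmed reads with cutadapt 1.11, aligned them with STAR 2.5.2a to GRCh38 with added spike-in sequences, and counted fragments per GENCODE gene on the sense strand with featureCounts, giving a fragment that fits several places or genes to each of them. Genes that share sequence therefore share counts. Annotated pseudogenes held counts equal to 29.1% of those of EIF4E, 16.1% of EIF4B, 14.3% of EIF2S2, 12.5% of EIF3F and 11.7% of EIF1AX. The deposited counts were used as they stand, and the authors' normalised tables were not used. The 41 separate tables held the same counts as the joint one. Symbols, positions, lengths and GC content came from GENCODE 44, which matched 58207 of 58721 genes.

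Genes with over 10 counts in a library and over 2 counts in 3 consecutive times were tested (21629). A natural spline of 7 degrees of freedom, whose knots lay at 20, 40, 60, 100, 160 and 260 min, was fitted to all 41 libraries with edgeR 4.0.16 (quasi-likelihood, robust, median-of-ratios size factors, 33 residual degrees of freedom), and 30, 60, 120, 240 and 400 min were set against 0 min. The standard error of a log2 change is its size over the root of F. P-values were adjusted over all genes tested, with a threshold of 0.01, and they measure scatter about the curve, not between cultures of 1 time. The script was tested on simulated data. The Ljung-Box test used lag 1. Paralog ratios were compared by an exact permutation test (scipy 1.17.1). Midpoints were read from a running mean of 3 libraries against the mean of 0 and 10 min. RefSeq promoter windows of 300 bases came from GRCh38.p14.

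In full are given the 3 members of each of 8 role groups that changed most among those passing the test and averaging at least 100 counts, with the members of paralog pairs, and up to 3 genes of each context list; other genes named were chosen after their values were seen. Members and lists were chosen with earlier results of these data known. Alternatives were TMM scaling, spike-in scaling, no filter, other knots, fewer terms, libraries left out, DESeq2 1.42.0, windows of 3 libraries and a threshold of 0.05. Added after seeing the data were leaving out the 4 libraries farthest from the curves and offsets smoothed over GC content (99.13% of tested genes had a value).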

Additional observations from a re-analysis of the deposited data

How the results depend on the processing

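Shares of all genes called were counted for the main fit only. Main counts of members higher and lower at 30, 60, 120, 240 and 400 min were 1/1, 5/1, 12/0, 32/4 and 38/6. Under TMM scaling and DESeq2 every one of these stayed within 1.5 times. Spike-in scaling, whose curves had a median standard error of 0.213 at 400 min against 0.0847, gave 0/0, 0/0, 2/0, 14/0 and 21/0; it put the median of 14204 genes averaging 50 or more counts at -0.211 log2 at 60 min and 0.113 at 400 min, against 0.0197 and 0.0752 with size factors, where the members' median was 0.63, and no member changed sign at 400 min. Without the 0 min library, when the reference is extrapolated from 10 min, the counts were 0/0, 0/0, 2/0, 7/1 and 16/2, and 4 called values turned round without passing: EIF3H at 240 min (-0.0144), and EIF3F (-0.0266), EIF2B2 (-0.33) and EIF3K (-0.0359) at 400 min. At 30 min the counts were 2 and 0 with even knots, 4 and 2 without the 3 smallest libraries (20, 50 and 340 min), 3 and 2 at a threshold of 0.05, 11 and 5 without the 4 libraries farthest from the curves (20, 90, 250 and 300 min) and 3 and 3 with GC-smoothed offsets, and 0 were lower with every second library. At 60 min windows of 3 libraries gave 3 higher and 0 lower, and 0 were lower with no filter, even knots, 5 degrees of freedom or every second library. At 120 min the number lower was 3 with even knots, 2 with windows and 3 with GC-smoothed offsets, which gave 21 higher. Those early counts thus moved with the libraries, the curve and the scaling used, and the cause was not tested. At 400 min 50 of 50 members kept their call under DESeq2, 49 under TMM, 46 with 5 degrees of freedom or every second library, 45 with GC-smoothed offsets, 41 with windows, 38 with even knots, 27 under spike-in scaling and 24 without 0 min. The 7 paralog ratios kept their sign and stayed under an adjusted p of 0.05 (exact permutation test) with early libraries of 10 to 60 min, late libraries of 290 to 340 min and GC-smoothed offsets, but late and early ratios then overlapped for EIF4G1/EIF4G2 in both of these other windows and for EIF1/EIF1B with 290 to 340 min. Autocorrelated members numbered 45 at lag 2 and 32 under spike-in scaling, against 43. No paired analysis was possible because each time had 1 library. Depth limits EIF4EBP3, EIF4E1B and EIF5A2.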
